A study of Populus sp. cv. 'Okanese' with 18 samples.

Results

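The most abundant leaf transcripts of hybrid poplar were taken as the genes whose CPM (counts of a gene per 1000000 counts of its library) averaged at least 2 to the power of 9 over all 18 libraries of the study, named the threshold here. The rule selected 226 of the 31033 genes in the count table. The members were thus chosen by their measured level, and that level is given as a description with no test. Genes are named by their P. trichocarpa v4.1 identifiers, without the version suffix, and coordinates refer to that annotation.

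The leaves came from Populus × ‘Okanese’ trees raised from cuttings for 42 days in a greenhouse with a 15 h photoperiod. Water was then withheld until pots reached 80, 50 or 30 % of field capacity (gravimetric soil water content, SWCg), and each pot was held at its level until 21 days after the treatment began. A leaf that formed during the treatment was harvested at 16 h (early evening, EE) or at 10 h (late morning, LM). This gave the groups EE80, EE50, EE30, LM80, LM50 and LM30, named by time and water level, with 3 libraries each, lettered A, B and C. The labels call 30 % SWCg severe drought, 50 % moderate drought and 80 % the control. All groups carry the same cultivar, so the values describe 1 genotype. One label field gives the unit of the water levels as g/g, and the percentages of the treatment protocol are used here. No source used here says that each library came from a separate tree or what the letters mark, and the p-values cover only how far these libraries spread.

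In a leaf, a small set of genes can take a large part of all messenger RNA. Nuclear genes for the photosynthetic machinery are known for such levels, and many of them are transcribed in a daily rhythm set by light and the circadian clock. Reads are counted out of a limited total, so the CPM of 1 gene also depends on how many reads the other genes take. The files give identifiers without names or descriptions, and the sources used here annotate none of the members. No function is therefore attached to any of them, and the leaf was not checked against marker genes. In bulk leaf RNA, fewer cells of a type and less RNA per cell cannot be told apart.

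The total count per library ranged between 17348563 and 48110546. The lowest count of any member in any library was 312, for which counting alone gives a coefficient of variation (CV) of 5.66 %, and for the median member, at the median of its counts, it was 0.653 %. Library LM30 B stood apart. Its TMM factor (the scaling by the trimmed mean of M values that edgeR applies to the total count) was 0.992, while the other 8 LM libraries lay between 0.876 and 0.916 and the 9 EE libraries between 1.06 and 1.17. On log2 values scaled by TMM, members in LM30 B lay at a median of -0.18 from their group mean, the largest such shift of the 18 libraries. That shift includes the TMM factor and is not independent of it. The file names in the count header carry 1 tag in all LM libraries and another in all EE libraries, so what that tag marks and the time of day cannot be told apart.

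The members held a smaller share of the counts in EE than in LM, with no overlap between libraries. The share was 32.9, 33.7 and 31.5 % in EE80 libraries A, B and C, against 40.1, 39.9 and 39.5 % in LM80. It was 32.4, 34.5 and 33.2 % in EE50, against 40.0, 39.6 and 40.0 % in LM50. It was 33.4, 34.6 and 35.0 % in EE30, against 40.9, 37.6 and 40.8 % in LM30, where the low value is LM30 B. All 9 EE libraries lay between 31.5 and 35.0 % and all 9 LM libraries between 37.6 and 40.9 %. The mean share over 3 libraries was 32.7 % ± 1.1 (SD) in EE80, 33.4 % ± 1.03 in EE50 and 34.3 % ± 0.841 in EE30, and the ranges of neighbouring water levels overlapped. In the late morning the means were 39.9 % ± 0.278 (LM80), 39.9 % ± 0.238 (LM50) and 39.7 % ± 1.86 (LM30), and LM30 averaged 40.8 % without library B. A share summed over selected genes was not given a test.

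**Figure D1:**
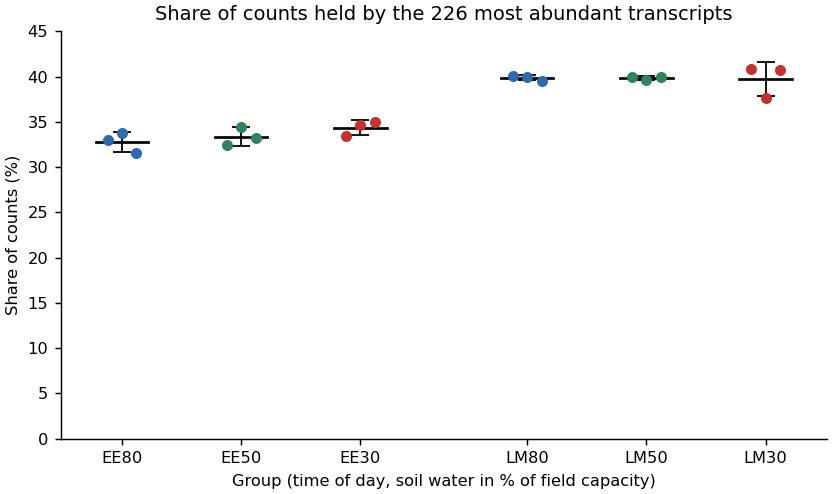
Share of all counts (%) held by the 226 members in each library, by group, with blue, green and red points for 80, 50 and 30 % SWCg and bars for the mean and SD of 3 libraries. The 9 EE libraries sit between 31.5 and 35.0 % and the 9 LM libraries between 37.6 and 40.9 %.

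The 10 members with the highest mean CPM held 7.39 % ± 0.422 of the counts in EE80 and 10.9 % ± 0.196 in LM80 (SD, n = 3 each). The other 216 members held 25.3 % ± 0.787 in EE80 and 28.9 % ± 0.413 in LM80, so both the top 10 and the rest took a smaller share in the evening. Long genes collect more reads per transcript. When counts were divided by gene length before the shares were formed, the members held 36.8 % ± 1.12 in EE80 and 42.5 % ± 0.377 in LM80.

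Potri.001G348900 (chromosome 1, 36079320 to 36083189, minus strand) had the highest mean level of all genes, 15115 CPM. Its levels were 13280.1, 15279 and 13524 CPM in EE80, against 13794, 15613 and 15563 CPM in LM80. The EE80 and LM80 libraries overlapped. The fitted log2 fold change of EE80 over LM80 was -0.43 ± 0.16 (SE, adjusted p = 0.0305), and it lost the call on total counts without TMM (-0.10, adjusted p = 0.509) and without LM80 B or C or EE80 A or C, with adjusted p of up to 0.0943. At 50 and 30 % SWCg the fold changes of EE over LM were -0.06 and 0.06 and were not called.

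Potri.010G200500 (chromosome 10, 19289624 to 19292919, plus strand) was the second most abundant member by CPM and differed strongly between times. Its levels were 7212, 7506 and 6391 CPM in EE80, 5852, 7302 and 6739 CPM in EE50 and 6098, 7200.1 and 8319 CPM in EE30. In the late morning they were 23428, 21912 and 22172 CPM in LM80, 22365, 22696 and 22519.7 CPM in LM50 and 23122, 21752 and 22972 CPM in LM30. No EE library reached any LM library. The log2 fold change was -2.01 ± 0.15 at 80 %, -2.04 ± 0.15 at 50 % and -1.85 ± 0.15 at 30 % SWCg (SE, adjusted p = 8.05e-09, 6.32e-09 and 1.97e-08).

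Potri.017G114600 (chromosome 17, 12218964 to 12220390, plus strand) ranked next by CPM with a mean of 14682, but first of all genes per kilobase of exon (18171 CPM per kb), since its exons add up to only 808 bases. Potri.004G100000 (chromosome 4, 8647104 to 8648787, minus strand) followed it by CPM (11346) and per kilobase (10158). Potri.017G114600 had 10992, 14967 and 14203 CPM in EE80, against 12236, 16146 and 16412 CPM in LM80, with overlap. Its log2 fold change of EE80 over LM80 was -0.49 ± 0.18 (adjusted p = 0.0273) and was not called on total counts (-0.16, adjusted p = 0.369), nor without any 1 of LM80 B or C and EE80 A or C (adjusted p of up to 0.121). Potri.004G100000 had 8965, 10758 and 10568 CPM in EE80, against 11139, 13431 and 13432 CPM in LM80, a fold change of -0.66 ± 0.17 (adjusted p = 0.00295).

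Among the remaining top 10, Potri.006G229300, Potri.004G162400, Potri.008G058500 and Potri.009G124100 were lower in EE80 than in LM80, by log2 fold changes of -0.82, -2.04, -0.73 and -1.22, with adjusted p between 1.84e-09 and 4.88e-04. Their means over all libraries lay between 5782 and 8258 CPM. Potri.014G172400 and Potri.005G239300 did not pass the test. Potri.014G172400 averaged 5332 ± 301 CPM in EE80 and 5055 ± 452 CPM in LM80 (SD, n = 3 each), and Potri.005G239300 averaged 4619.6 ± 169 CPM in EE80 and 4096 ± 56.5 CPM in LM80. Both were thus slightly higher in EE80 by CPM, while their TMM-scaled log2 fold changes were -0.25 and -0.16 (adjusted p = 0.074 and 0.228). With total counts in the same model these were 0.077 and 0.17 (adjusted p = 0.487 and 0.0971).

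At the lower end of the list, the members just inside the threshold were Potri.005G000500 (516.6 CPM), Potri.014G098600 (512.5 CPM) and Potri.017G036800 (512.5 CPM). The genes just outside were Potri.011G057800 (508.6 CPM), Potri.009G037000 (505.9 CPM) and Potri.011G052700 (504.0 CPM). The list was densest near the threshold, since 118 of the 226 members had a mean between the threshold and 1000 CPM, 57 between 1000 and 2000 CPM, 42 between 2000 and 5000 CPM and 9 above 5000 CPM.

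A mean over both times can be reached through 1 time alone. Of the 226 members, 170 reached the threshold in the mean of the EE libraries and in that of the LM libraries, 18 only in EE and 38 only in LM. Those 56 members had to differ between the times and are counted apart below. Applied to each time on its own, the threshold gave 216 genes in EE and 245 in LM, and the 170 shared genes were 78.7 % of the EE list and 69.4 % of the LM list. In all 18 libraries 137 members were at or above it.

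The first comparison asked how the members' levels in EE differed from those in LM at each water level. Most members that differed were lower in the evening. At 80 % SWCg, 145 of the 226 were lower and 21 higher in EE80 than in LM80, while 24.6 % of all 23926 genes tested were lower and 27.4 % higher (edgeR quasi-likelihood test, TMM scaling, Benjamini–Hochberg adjusted p below 0.05 over all genes tested). At 50 % SWCg, 138 were lower and 21 higher in EE50 than in LM50, against 24.2 % lower and 28.9 % higher of all genes. At 30 % SWCg, 122 were lower and 33 higher in EE30 than in LM30, against 25.1 % lower and 28.4 % higher of all genes. Without LM30 B the counts at 30 % SWCg were 144 lower and 22 higher, against 24 % lower and 25.5 % higher of all genes. All 226 members passed the filter on low counts.

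Among the 170 members above the threshold at both times, 109 were lower and 7 higher in EE80 than in LM80. The counts were 101 lower and 7 higher at 50 % SWCg and 87 lower and 16 higher at 30 % SWCg, and without LM30 B the last pair was 109 lower and 8 higher. The 38 members above the threshold in LM only gave 36, 37 and 35 lower calls at 80, 50 and 30 % SWCg, and the 18 through EE only gave 14, 14 and 17 higher calls. The median log2 fold change over the 226 members was -0.52 at 80 %, -0.44 at 50 % and -0.32 at 30 % SWCg, beside 0.03, 0.05 and 0.02 over all genes tested.

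The count of higher and lower calls depended on the scaling. TMM assumes that most genes do not differ, and relative to total counts alone it lowered the median log2 fold change of all genes by 0.34 at 80 % SWCg, 0.27 at 50 % and 0.20 at 30 %. At 80 % SWCg, 24.6 % of all genes were called lower and 27.4 % higher on the TMM scale. More genes were thus called than not, also at 50 and 30 %, and the assumption was not met by these calls. Which scale lies nearer to the levels in the leaf was not tested. On total counts, which is the scale of the CPM values given here, 105 members were lower and 52 higher in EE80 than in LM80, while 12.2 % of all genes were lower and 49.6 % higher. The corresponding counts were 97 lower and 49 higher at 50 % SWCg (14 % and 46.4 % of all genes), and 98 lower and 53 higher at 30 % SWCg (16.2 % and 40.5 %). In the group above the threshold at both times, total counts gave 69 lower and 35 higher at 80 % SWCg. No member was called in opposite directions by the 2 scalings. Fold changes below are on the TMM scale.

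**Figure D2:**
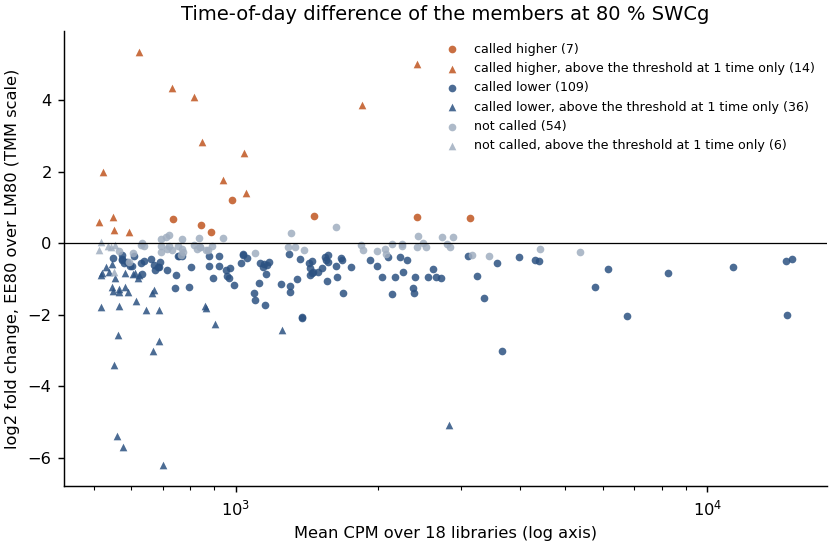
Log2 fold change of EE80 over LM80 (TMM scale) against the mean CPM over 18 libraries (log axis), 1 point per member, coloured by call, with triangles for members above the threshold at 1 time only. Of the 145 members called lower, 109 reached the threshold at both times, and 8 of the 9 members above 5000 CPM were among the 145.

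Calls were also counted by level among the 170 members above the threshold at both times. Lower calls in EE80 made up 36 of 68 members with a mean between the threshold and 1000 CPM, 43 of 53 between 1000 and 2000 CPM, 22 of 40 between 2000 and 5000 CPM and 8 of 9 above 5000 CPM. Higher calls made up 4, 1, 2 and 0 of them. The median log2 fold changes were -0.36, -0.57, -0.40 and -0.73 in that order. Reaching the threshold at both times limits how far a member with a mean below 1000 CPM can differ. Without that condition, 70 of the 118 members in this lowest range were called lower, with a median of -0.52. The ranges are therefore not compared with each other.

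Across the 3 water levels, 115 members were lower in EE than in LM at all 3 and 17 were higher at all 3, beside 18.5 % and 21.6 % of all genes tested. Of the 115, 35 were members through LM only, and of the 17, 13 were members through EE only, so the members above the threshold at both times gave 80 lower and 4 higher. Without LM30 B the counts over all members were 138 lower and 17 higher (19.8 % and 20.5 % of all genes), and on total counts they were 91 and 41 (10.3 % and 36 % of all genes). For the members above the threshold at both times they were 103 and 4 without LM30 B and 58 and 25 on total counts. A further 30 members were called at 2 levels and 24 at 1, none in opposite directions, and 40 were called at none. The 115 members that were lower throughout held 14.2 % ± 0.665 of the counts in EE80 and 24.7 % ± 0.258 in LM80 (SD, n = 3 each). The 17 that were higher throughout held 3.28 % ± 0.125 in EE80 and 0.811 % ± 0.0646 in LM80. The direction of both differences was fixed by how the sets were chosen, and the shares describe only their size. The 40 members called at no level held 6.71 % in EE80 and 5.86 % in LM80. Their log2 fold changes were averaged over the 3 levels, where opposite signs cancel. The absolute values of these means had a median of 0.12 and a maximum of 1.04. Among the 115, the mean log2 fold change over the 3 levels lay between -5.94 and -0.30 with a median of -0.86, and 39 differed more than 2-fold at every level. Among the 17 it lay between 0.48 and 5.30 with a median of 1.54, and 10 differed more than 2-fold at every level.

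Among the members called at all 3 water levels, those with the highest and lowest mean log2 fold change over the levels were abundant at 1 time only. Potri.004G020500 (chromosome 4, 1491008 to 1493835, minus strand) had 4311 to 5587 CPM with a median of 4593 in the 9 EE libraries, against 42.8 to 125 CPM with a median of 107 in the 9 LM libraries. Every EE library was above every LM library. Its log2 fold change was 5.03 ± 0.32 at 80 %, 5.39 ± 0.32 at 50 % and 5.50 ± 0.32 at 30 % SWCg (SE, adjusted p between 5.69e-10 and 1.25e-09), and LM30 B was its lowest library. Potri.009G116400 (chromosome 9, 9831560 to 9832749, plus strand), a gene of 1 exon, had 944 to 1435 CPM with a median of 1225 in EE, against 23.1 to 40.3 CPM with a median of 24.6 in LM. Its log2 fold change was 5.36 ± 0.18 at 80 %, 5.36 ± 0.18 at 50 % and 4.87 ± 0.17 at 30 % SWCg (adjusted p = 8.70e-13, 8.80e-13 and 2.30e-12).

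On the other side, Potri.014G106800 (chromosome 14, 7178932 to 7186752, plus strand) had 13.7 to 28.5 CPM with a median of 23.1 in EE, against 1015 to 1382 CPM with a median of 1094 in LM. Its log2 fold change was -5.71 ± 0.24 at 80 %, -6.03 ± 0.25 at 50 % and -6.07 ± 0.25 at 30 % SWCg (adjusted p of 1.37e-11 or less). Potri.002G180800 (chromosome 2, 14319477 to 14328363, plus strand) had 17.1 to 32.8 CPM with a median of 28.4 in EE, against 958 to 1289 CPM with a median of 1099 in LM. Its log2 fold change was -5.39 ± 0.23 at 80 %, -5.75 ± 0.23 at 50 % and -5.75 ± 0.23 at 30 % SWCg (adjusted p of 1.46e-11 or less). Both genes have 8 exon blocks and lay at 32.9 CPM or less in every EE library and at 957.9 CPM or more in every LM library. All 4 of these members were above the threshold at 1 time only, so they had to differ and their fold changes describe how far.

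**Figure D3:**
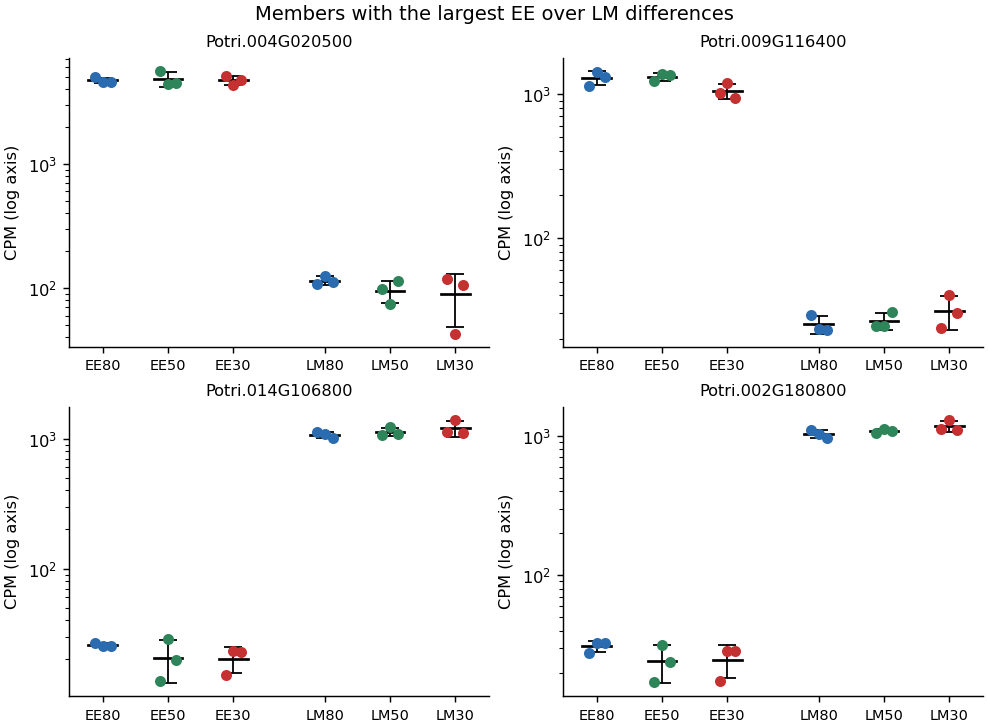
CPM (log axis) in each library of the 2 members with the highest and the 2 with the lowest mean log2 fold change of EE over LM, among members called at all 3 water levels. Points are libraries, bars the mean and SD of 3. The EE libraries of Potri.014G106800 and Potri.002G180800 lie at or below 32.9 CPM and their LM libraries at or above 957.9 CPM.

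Few members accounted for much of the difference in share between EE80 and LM80. The net difference of -7.12 percentage points was the sum of 144 members that took a smaller share in EE80 (-11.2 points together) and 82 that took a larger share (4.04 points). Potri.010G200500 held 0.704 % of the counts in EE80 and 2.25 % in LM80. Potri.004G162400 (chromosome 4, 18212324 to 18214996, plus strand) held 0.332 % in EE80 and 1.08 % in LM80. These 2 members together gave -2.30 points, 20.6 % of the summed loss, and the first 10 gave -4.96 points, 44.4 % of it. The difference did not rest on the 2 alone: without them the other members held 31.7 % ± 1.03 in EE80 and 36.5 % ± 0.237 in LM80 (SD, n = 3 each).

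Potri.004G162400 had 3428, 3396 and 3129.5 CPM in EE80, 2509, 3079 and 2987 CPM in EE50 and 2488, 2904 and 3046 CPM in EE30. Its LM libraries had 9128 to 10936 CPM with a median of 10692, so the times did not overlap. Its log2 fold changes of EE over LM were -2.04 ± 0.13, -2.18 ± 0.13 and -2.03 ± 0.13 at 80, 50 and 30 % SWCg (adjusted p of 1.94e-09 or less). The largest gains in share were those of Potri.004G020500 and of Potri.011G025200 (chromosome 11, 1877110 to 1878975, minus strand), 0.811 points together. Potri.011G025200 had 2914 to 4148 CPM with a median of 3431 in EE, against 90.3 to 214 CPM with a median of 193 in LM. Its log2 fold changes were 3.86 ± 0.23, 3.96 ± 0.23 and 4.37 ± 0.24 at 80, 50 and 30 % SWCg (adjusted p of 7.66e-10 or less). Potri.011G025200 was above the threshold in EE only, so it had to differ and its fold changes describe how far.

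**Figure D4:**
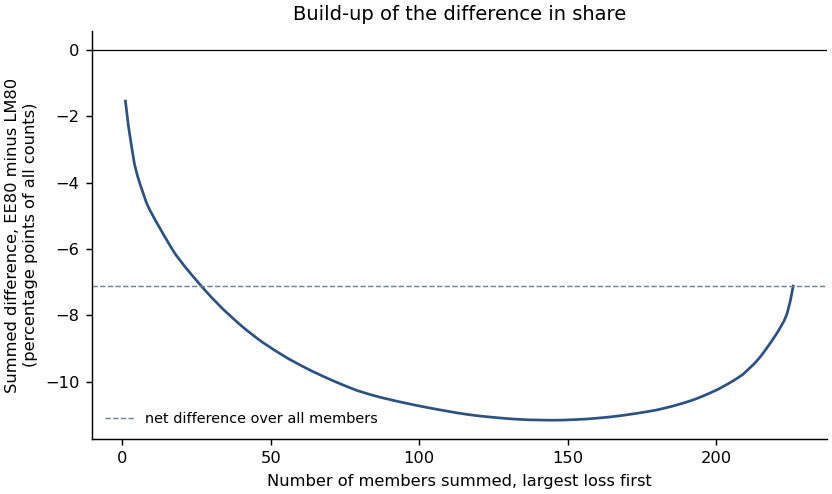
Difference in share of counts between EE80 and LM80 (percentage points), summed over members from the largest loss to the largest gain. The curve passes the net difference of -7.12 points after 27 members, reaches -11.2 points after 144 members and returns to -7.12 points over the last 82.

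The second question was how the members' levels differed with soil water. Differences were far smaller than those between times of day, and most did not pass the test. In the late morning no member was called between LM30 and LM80 or between LM50 and LM80 by the edgeR test. For LM30 against LM80, 37 members had an unadjusted p below 0.05 (15.1 % of all genes did), 0.0669 % of all genes were called, and DESeq2 called 8 members and 2.28 % of all genes. For LM50 against LM80, no member had an unadjusted p below 0.05 (1.95 % of all genes did), 0 % of all genes were called, and DESeq2 called no member and 0.00418 % of all genes. The paper, with robust dispersion estimates, reported far more late-morning genes over both drought levels together. A missing call is thus not read here as an absent difference. Leaving out LM80 A gave 3 calls for LM30 against LM80, for which no share of all genes is given and from which nothing is read.

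The members with the smallest p in each direction for LM30 against LM80 were Potri.001G066400 and Potri.011G087200. Potri.001G066400 (chromosome 1, 4977534 to 4979088, minus strand) had 106, 193 and 66.6 CPM in LM30, against 63.4, 44.5 and 49.4 CPM in LM80. All LM30 libraries were above all LM80 libraries, with LM30 B the highest, and its log2 fold change was 1.14 ± 0.30 (SE, adjusted p = 0.0939). Its level in the evening was much higher, 1842 ± 453 CPM in EE30 and 1112 ± 263 CPM in EE80 (SD, n = 3 each). Potri.011G087200 (chromosome 11, 11095358 to 11098637, plus strand) had 928, 875 and 887 CPM in LM30, against 1261, 1231 and 1076 CPM in LM80, with no overlap, and a log2 fold change of -0.46 ± 0.09 (adjusted p = 0.0684). DESeq2 called both, with adjusted p of 0.0125 for Potri.001G066400 and 1.85e-04 for Potri.011G087200. For LM50 against LM80 the members nearest to a call were Potri.016G115200, with a log2 fold change of 0.25 ± 0.16, and Potri.011G134900, with -0.22 ± 0.13 (adjusted p = 1 for both).

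In the early evening, EE30 against EE80 gave 6 calls, 2 members higher and 4 lower, beside 0.836 % and 1.14 % of all genes. Libraries with the same letter deviated together in these groups, and with the letter as a block the counts were 6 higher and 4 lower, beside 1.45 % and 1.71 % of all genes. DESeq2 called 15 higher and 9 lower, beside 1.98 % and 2.47 % of all genes. The count moved when single libraries were left out. It was 1 or 2 without EE30 A, EE30 B, EE80 A or EE80 C, 9 without EE50 A or LM80 A, 14 without LM30 B and 16 without EE80 B. Shares of all genes are given for LM30 B and EE80 B only, and the other counts are not read as a result about the members. Without LM30 B 7 were higher and 7 lower (1.57 % and 1.71 % of all genes), and without EE80 B 11 were higher and 5 lower (1.39 % and 1.58 %). On total counts there were 3 higher and 8 lower, beside 0.41 % and 1.81 % of all genes. The median log2 fold change of the members for EE30 over EE80 was 0.13, beside 0.01 over all genes tested, and 156 of the 226 had a positive value. For LM30 over LM80 it was -0.05, beside -0.01 over all genes, and 86 had a positive value. On total counts the evening median was 0.06 with 136 positive, beside -0.07 over all genes. The morning median was 0.01 with 114 positive, beside 0.05 over all genes. The sign of the morning median thus changed with the scaling, while it lay below the median of all genes on both scales. These morning values include LM30 B, in which members lay at a median of -0.18 from their group mean on the TMM scale. In LM30 A and C that shift was 0.09 and 0.08. The shift on total counts is not given.

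Among the members that were lower in EE30 than in EE80, Potri.010G209900 (chromosome 10, 19914942 to 19916702, minus strand) changed most. It had 538, 503 and 504 CPM in EE80, 373, 359.8 and 357 CPM in EE50 and 239, 235 and 216 CPM in EE30. The 3 water levels did not overlap, and EE50 lay between EE80 and EE30. The log2 fold change of EE30 over EE80 was -1.09 ± 0.12 (SE, adjusted p = 4.27e-04). In the late morning it had 724, 654 and 743 CPM in LM30, against 654, 842 and 897 CPM in LM80, where the groups overlapped and the log2 fold change was -0.23 ± 0.12 (adjusted p = 0.369).

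Potri.011G087200 also fell in the evening, to 419.8, 399.6 and 448 CPM in EE30, against 699.6, 580.0 and 637 CPM in EE80, a log2 fold change of -0.52 ± 0.09 (adjusted p = 0.0108). The call was lost without EE30 A, EE30 B or EE80 A (adjusted p of 0.0557 to 0.07). Its EE30 and EE80 libraries did not overlap, and both times showed a lower level at 30 % SWCg.

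The 2 members called higher were Potri.010G248700 (chromosome 10, 22265254 to 22268863, minus strand) and Potri.016G025000 (chromosome 16, 1400257 to 1402744, minus strand). Potri.010G248700 had 865, 866 and 764 CPM in EE30, against 571, 732 and 538 CPM in EE80, with no overlap and a log2 fold change of 0.51 ± 0.11 (adjusted p = 0.0329). Potri.016G025000 had 654, 734 and 695 CPM in EE30, against 517, 587 and 568 CPM in EE80, again with no overlap, and a log2 fold change of 0.39 ± 0.09 (adjusted p = 0.036). Both calls were lost when the 2 groups were fitted alone (adjusted p = 0.0772 and 0.0945) and without EE30 A, EE30 B, EE80 A or EE80 C (adjusted p of up to 0.169). That of Potri.016G025000 was also lost without EE30 C (adjusted p = 0.0574) and without any 1 of the LM50 libraries (adjusted p of 0.0506 to 0.052).

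EE50 against EE80 gave no member called by edgeR, while 0.0125 % of all genes were. An unadjusted p below 0.05 was found for 16 members and 6.39 % of all genes, and DESeq2 called 4 members and 0.18 % of all genes. The members nearest to a call were Potri.010G248700, with a log2 fold change of 0.38 ± 0.11, and Potri.008G065600, with -0.51 ± 0.11 (adjusted p = 0.588 and 0.345). Potri.008G065600 had 259, 229 and 237 CPM in EE50, against 389, 268 and 397 CPM in EE80, with no overlap, and EE80 B was the lowest EE80 library. Without EE80 B its log2 fold change was -0.66 (adjusted p = 0.0104).

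Averaged over both times of day, 30 against 80 % SWCg gave 23 members, 13 higher and 10 lower, beside 2.49 % higher and 3.16 % lower of all genes. DESeq2 called 22 higher and 13 lower (3.39 % and 4.89 % of all genes), and the block for the letter gave 15 higher and 10 lower (3.76 % and 4.28 %). The count was 7 without EE80 A, 9 without EE30 B or EE80 C, 13 to 15 without EE30 A, LM80 A or LM80 B, and 20 without LM30 B. No share of all genes is given for these counts with 1 library left out, so they are not read as a result about the members. The 23 members had the same sign at both times, which the choice by their average favours. The level at 50 % SWCg lay between those at 80 and 30 % for 22 of the 23 in the evening and for 19 in the morning, beside 159 and 136 of all 226 members. Choosing members for a large gap between 30 and 80 % favours such an order, so nothing is read from it. Among the 13 higher members the log2 fold change lay between 0.26 and 0.97 with a median of 0.34, and among the 10 lower members between -0.75 and -0.34 with a median of -0.46. All 6 members called in the evening were among the 23, an overlap that the EE30 and EE80 libraries used in both contrasts favour. Of the 23, 13 were also called between EE and LM at all 3 water levels, as were 132 of all 226 members.

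Potri.006G099500 (chromosome 6, 7614060 to 7615351, minus strand) was higher at 30 % SWCg by a log2 fold change of 0.38 ± 0.07 over both times (SE, adjusted p = 0.00924). It had 2359, 2597 and 2327 CPM in EE30, against 1838, 2065 and 1833 CPM in EE80. It had 2156, 2522 and 2142 CPM in LM30, against 1789, 1581 and 1777 CPM in LM80. The groups did not overlap at either time, and the gene was not called between EE and LM at any water level (adjusted p of 0.181 or more).

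Potri.016G025000 was higher by 0.32 ± 0.06 (adjusted p = 0.01) and had 887, 963 and 899.8 CPM in LM30, against 762, 716 and 756 CPM in LM80. Potri.010G209900 was lower by a log2 fold change of -0.66 ± 0.08 (adjusted p = 7.66e-04) and Potri.011G087200 by -0.49 ± 0.07 (adjusted p = 0.00118). These 3 were lower in EE than in LM at every water level. Potri.001G066400 had the largest fold change of the 23, 0.97 ± 0.21 (adjusted p = 0.016).

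**Figure D5:**
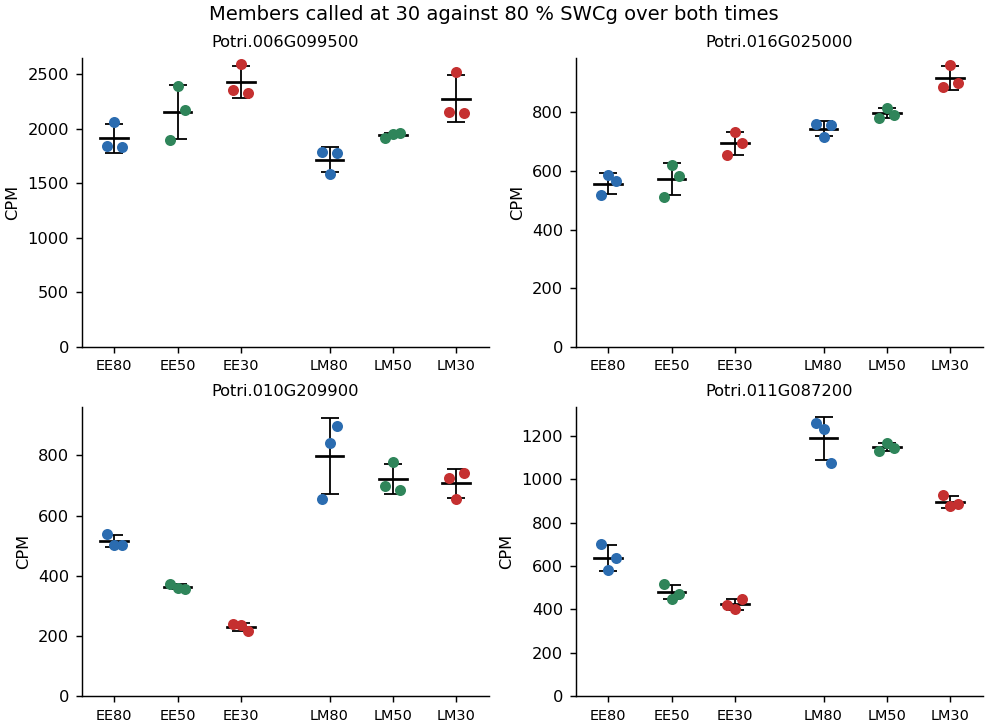
CPM in each library of 2 members called higher and 2 called lower at 30 against 80 % SWCg over both times. Points are libraries, bars the mean and SD of 3. Potri.010G209900 has 216 to 239 CPM in EE30 and 503.3 to 538.1 CPM in EE80, while its LM30 and LM80 libraries overlap.

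The difference between the drought contrasts of the 2 times, EE30 over EE80 minus LM30 over LM80, was tested directly. No member was called, nor was any other gene (0 %), by the edgeR test. An unadjusted p below 0.05 was found for 19 members and 8.57 % of all genes, and DESeq2 called 1 member and 0.142 % of all genes. The smallest p among the members was that of Potri.010G209900, whose log2 fold change differed by -0.86 ± 0.16 between the times (adjusted p = 0.215). Over the members the median difference was 0.16, beside 0.01 over all genes tested, and on total counts it was 0.03 beside -0.13. These medians include LM30 B, in which members lay at a median of -0.18 from their group mean on the TMM scale.

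The members resembled the other genes in structure. The median summed exon length was 1840 bases for members and 1965 bases for the other 23700 genes tested, the median number of exon blocks was 5 in both, and 15.0 % of members and 14.8 % of the others had 1 exon. Members lay on all 19 chromosomes, with 33 on chromosome 1 and 3 on chromosome 13, which were 1.17 % and 0.315 % of the genes tested there. Exons of 13 members (5.75 %) overlapped another gene, beside 6.31 % of the others, and reads there were left out by the counting. There were 4 pairs of members with no other gene between them. Ranked per kilobase of exon, 177 of the members were among the 226 highest genes.

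The spread between replicates was described in CPM and by the fit. The median CV within groups was 7.24 % for members and 11.5 % for the other genes tested, a difference that the members' higher counts favour. The biological CV of the edgeR fit, which sets counting noise apart, had a median of 10.7 % for members and 10.9 % for the other genes. Of the summed squares of the members' log2 CPM, here scaled by TMM, 92.6 % lay between the times of day, 2.56 % between water levels within a time and 4.89 % between replicates. The scaling bears on the part for time of day. For all genes tested these were 72.3, 8.53 and 19.1 %. The members' value for time of day includes those above the threshold at 1 time only, which had to differ. Members above the threshold at both times gave 83.8 % for time of day, 5.44 % for water and 10.7 % for replicates. Potri.016G106900 (chromosome 16, 11184676 to 11187007, plus strand) had the lowest CV of CPM over the 18 libraries, 5.08 %, with 706 to 822 CPM with a median of 774 in EE, against 684 to 835 CPM with a median of 757 in LM. On the TMM scale it was lower in EE80 than in LM80 by a log2 fold change of -0.36 ± 0.10 (adjusted p = 0.00763), and on total counts the value was -0.03 (adjusted p = 0.752). Potri.017G146600 (chromosome 17, 14651481 to 14654867, plus strand) varied most, with a CV of 131 %. It had 12.7 to 142 CPM with a median of 31.0 in EE, against 512.2 to 3264 CPM with a median of 979.7 in LM, and its LM80 libraries alone spread over 891, 1979 and 3264 CPM. It had 1294, 1979 and 979.7 CPM in LM50 and 726, 512.2 and 644 CPM in LM30. Its log2 fold change of -6.21 ± 0.74 for EE80 over LM80 (adjusted p = 2.16e-06) was the largest of any member in that contrast, with a larger SE than those of the 4 members named above. Potri.017G146600 was above the threshold in LM only, so it had to differ and its fold change describes how far.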

How the data were processed

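RNA from 18 leaf libraries was prepared with a stranded kit and sequenced as single-end reads. Per the paper and labels, reads were trimmed (Trimmomatic), mapped with HISAT2 2.2.1 on P. trichocarpa v4.1, converted with SAMtools 1.3.1 and assigned to genes with featureCounts 2.0.1. Deposited were raw counts per gene, not normalized. Per the file headers, featureCounts ran with its default settings, which ignore strand and leave out reads with several alignments or over more than 1 gene. Near-identical paralogues therefore lose reads, and antisense reads cannot be told apart.

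CPM values were formed from the total count of each library, and genes with a mean CPM of 512 or more were the members. The counts were fitted with edgeR 4.0.16 in R 4.3.3 as 1 model of 6 groups. Genes with an average log2 CPM above -2 were kept. The paper's upper limit of 9 was dropped, since it leaves out the members. TMM factors, the quasi-likelihood F test and Benjamini–Hochberg adjustment over 23926 genes were used, with calls at an adjusted p below 0.05. The fit was run on simulated counts in which 200 genes were raised in EE30 alone, for EE30 against EE80. That setting does not bear on the contrasts of EE against LM, where many genes differed. Shares and figures were made with Python 3.11.15, pandas 2.3.3 and matplotlib 3.10.9. DESeq2 1.42.0 was an alternative, with other scalings, filters, tests, the replicate letter as a block and each library left out in turn. Deviations of same-lettered libraries correlated at 0.207, 0.197 and 0.378 between EE30 and EE80 (letters A, B and C), so that the letters were taken to pair these libraries; no other comparison had all 3 correlations above 0.1. 

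Members and lists were chosen with earlier results of these data known. Named were the 10 members of highest mean CPM, the 3 on each side of the threshold, 2 per direction with the largest mean fold change among members called at all 3 water levels, 2 per direction by change in share, up to 2 per direction by p in each water contrast, and the lowest and highest CV. Planned gene lists, marker genes and promoter motifs were not run, since no gene descriptions or sequences were used here.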

Additional observations from a re-analysis of the deposited data

How the results depend on the processing

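The calls between times of day, both directions together, were within 1.5 times of their main number under every scaling, test and filter tried and with each library left out: 155 to 182 members for EE80 against LM80, 146 to 172 for EE50 against LM50 and 134 to 166 for EE30 against LM30 when 1 library was left out. The higher calls alone were not: total counts gave 52 against 21 for EE80 over LM80, 49 against 21 for EE50 over LM50 and 53 against 33 for EE30 over LM30. The calls between water levels also moved further. For EE30 against EE80 (6 members), total counts gave 11, DESeq2 24, the likelihood ratio test with robust dispersion 22 and the replicate block 10, and leaving out 1 library gave 1 to 16. For LM30 against LM80 (0 members) DESeq2 gave 8, the likelihood ratio test 7 and the replicate block 2, with 0 to 3 when 1 library was left out. For EE50 against EE80 (0 members) DESeq2 and the likelihood ratio test gave 4 each, with 0 to 1 when 1 library was left out. For both times together (23 members) DESeq2 gave 35, with 7 to 26 when 1 library was left out. For the difference of the drought contrasts (0 members) total counts, DESeq2 and the likelihood ratio test gave 1 each. The cause was not tested. The shares of all genes called by DESeq2 are given above, as are those for total counts and the block in EE30 against EE80. For the likelihood ratio test, whose robust dispersion estimate the paper also used, no such share is given. None is given for the block in LM30 against LM80 or for total counts in the difference of the drought contrasts. The same holds for most counts with 1 library left out. None of these counts is therefore read as a result about the members. Apart from these counts, the block changed the call of 1 gene named in the text, Potri.011G087200 in LM30 against LM80 (-0.46, adjusted p = 0.0362). The contrast over both times and the difference between times could not be fitted with each time alone.

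The share of counts kept its direction under every alternative. Restricted to members above the threshold at both times, which are fewer genes, it was 28.8, 29.5 and 30.6 % in EE80, EE50 and EE30 and 35.3, 35.4 and 35.6 % in LM80, LM50 and LM30. Per kilobase of exon it was 36.8, 37.3 and 38.4 % in EE80, EE50 and EE30 and 42.5, 42.8 and 43.1 % in LM80, LM50 and LM30. An average log2 CPM above 9 selected the same 226 genes. On total counts the direction of Potri.014G172400 (0.077) and Potri.005G239300 (0.17) in EE80 against LM80 was reversed. Depth limits little here, since the lowest count of a member was 312.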
